A study of Caenorhabditis elegans with 45 samples.

Results

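The genes described here are 10 infection and stress response genes of the nematode Caenorhabditis elegans, taken by their symbols: irg-1, irg-2, irg-3, irg-4, irg-5, irg-6, irg-7, dod-17, dod-22 and dod-24. All 10 were found among the 46926 genes of the deposited tables, and all 10 were among the 16053 genes that passed the filter on low counts. RNA sequencing of polyadenylated RNA from whole young adult hermaphrodites gave their values in 45 libraries, with 5 biological replicates (A to E) of each of 9 genotypes. The abbreviation irg stands for infection response gene and dod for downstream of DAF-16.

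The genotypes crossed 3 states of the HIF-1 pathway with 3 states of nonsense-mediated decay (NMD). The mutant alleles were r863 of smg-2, n6597 of smg-1, sa307 of egl-9 and ia4 of hif-1. With the smg-2 mutation the strains were MT27180, which also carried the egl-9 and hif-1 mutations and is called the smg-2 triple mutant below, MT26461, which also carried the egl-9 mutation, and MT27410 with smg-2 alone. With the smg-1 mutation they were MT27177 with egl-9 and hif-1, called the smg-1 triple mutant, MT26971 with egl-9, and MT26974 with smg-1 alone. With NMD intact they were CB6088 with egl-9 and hif-1, JT307 with egl-9, and the wild type N2. Every genotype was 1 strain, and no genotype had the hif-1 mutation without the egl-9 mutation, so the effect of hif-1 was measured in egl-9 mutants. Worms of all genotypes were fed OP50 bacteria at 20 °C in 20% oxygen and were collected 6 h after the L4 stage, and the labels name no exposure to a pathogen.

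In air, the prolyl hydroxylase EGL-9 modifies the transcription factor HIF-1 and so leads to its destruction, and egl-9 mutants accumulate HIF-1. Both the kinase SMG-1 and the helicase SMG-2 are needed for NMD, which degrades mRNAs with early stop codons. The intestine is the main tissue in which worms meet swallowed bacteria, and it answers infection by transcribing secreted and membrane-bound defence proteins. One branch of that answer runs from TIR-1 through the kinases NSY-1 and SEK-1 to the p38 kinase PMK-1 and its transcription factor ATF-7, and irg-4 and irg-5 are known as genes of this branch. Another branch uses the bZIP factor ZIP-2, which responds to blocked translation and drives irg-1. The dod genes were named for their response to the insulin pathway factor DAF-16, and dod-17, dod-22 and dod-24 belong to those with lower expression when DAF-16 is active.

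Total counts per library lay between 9822412 and 33169699 with a median of 16917459. Of the mutated genes, hif-1 had 15.8 to 36.04 CPM (counts relative to the scaled size of the library) in egl-9 hif-1 against 142 to 162 CPM in egl-9, while its RNA reached 248 to 361 CPM in the smg-1 triple mutant and 306 to 392 CPM in the smg-2 triple mutant. The RNA of egl-9 was 95.1 to 115, 100.4 to 129 and 112 to 122 CPM in egl-9, smg-1 egl-9 and smg-2 egl-9, against 20.7 to 28.3 CPM in N2. The RNA of smg-1 was 249 to 453 CPM in smg-1 against 86.1 to 133 CPM in N2, and that of smg-2 was 74.5 to 96.6 CPM in smg-2 against 74.0 to 101 CPM in N2, so these RNA levels do not check loss of the proteins. The summed level of 8 known HIF-1 targets was 2465 to 4601 CPM in the egl-9 mutants with hif-1 intact, against 81.0 to 117 CPM in genotypes with egl-9 intact. In the egl-9 hif-1 mutants it was 62.6 to 88.9 CPM, except for the smg-1 triple mutant replicate C with 234 CPM. Leaving out that library changed 1 call of the 10 genes, irg-4 in the smg-1 triple mutant versus egl-9 hif-1, which became lower (log2 -0.69, adjusted p 0.0388, against 0.0587 with it). All 12 markers of the intestine were detected in the data, and their summed level lay between 3888 and 6612 CPM over the 45 libraries. RNA of whole animals does not show which cells a transcript came from, and fewer cells of a type cannot be told apart from less RNA per cell.

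The 10 genes lie on 3 chromosomes (WBcel235, Ensembl release 115 annotation), and none overlaps another annotated gene. A group of 4 lies on chromosome IV, with 61334 bp between the outermost starts: irg-6 (C32H11.1, IV:12912722-12914969, minus strand), dod-24 (C32H11.12, IV:12940106-12941354, minus strand), dod-22 (F55G11.5, IV:12965374-12967392, plus strand) and dod-17 (K10D11.1, IV:12976303-12978343, plus strand). The gene irg-4 (F08G5.6) lies on the plus strand of the same chromosome at IV:12435833-12438236. On chromosome V are irg-3 (F53E10.4, V:2592591-2595062), irg-1 (C07G3.2, V:3523587-3524679) and irg-2 (C49G7.5, V:4042181-4043601), all on the plus strand, and irg-5 (F35E12.5, V:13737010-13738474) on the minus strand. The longest of the 10, irg-7 (F40F4.6), lies on the minus strand of chromosome X at X:3235754-3243636 and has up to 23 exons.

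Levels of different genes were compared per length as TPM, the abundance of a transcript relative to all transcripts of a library. In N2, dod-24 was the most abundant of the 10 with 68.0 ± 6.85 TPM (SD, n = 5), followed by irg-7 with 50.3 ± 11.2 TPM. Next came dod-17 with 21.7 ± 6.47 TPM, irg-4 with 15.7 ± 1.77 TPM, irg-3 with 11.8 ± 1.80 TPM and irg-1 with 7.46 ± 3.31 TPM. The genes dod-22 (3.63 ± 1.44 TPM), irg-5 (1.82 ± 0.348 TPM) and irg-2 (0.920 ± 0.583 TPM) were low, and irg-6 was close to absent at 0.0200 ± 0.0200 TPM. In egl-9 the order was different, with dod-24 at 527 ± 61.5 TPM, irg-4 at 307 ± 101 TPM, irg-7 at 70.2 ± 17.5 TPM and irg-5 at 67.9 ± 44.0 TPM, all above irg-3 at 14.6 ± 2.04 TPM, dod-22 at 13.1 ± 2.42 TPM and dod-17 at 2.53 ± 0.464 TPM. Between the lowest and the highest genotype mean, the CPM of irg-5 spanned 39.2-fold, irg-1 26.3-fold, dod-17 23.9-fold, irg-4 19-fold and dod-24 14.4-fold. The spans of irg-2 (7.54-fold), dod-22 (5.43-fold), irg-3 (2.05-fold) and irg-7 (1.53-fold) were narrower.

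**Figure D1:**
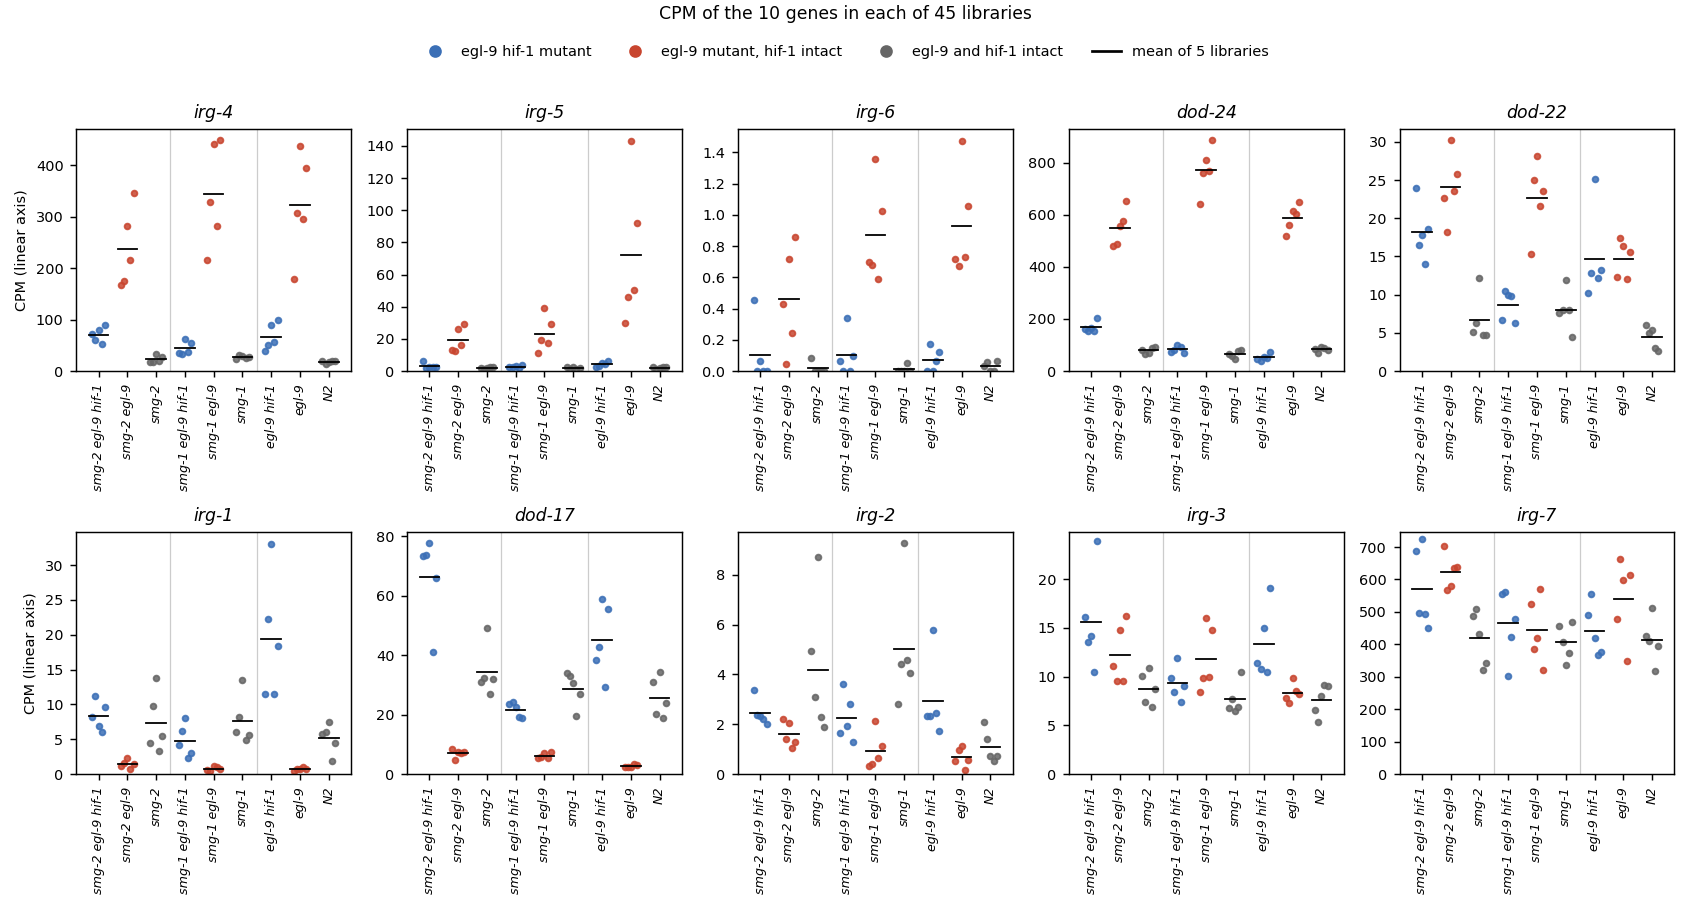
CPM of each of the 10 genes (linear axes from 0) in 45 libraries. Points are libraries A to E from left to right within each genotype, bars are means of 5, and colours mark the state of the HIF-1 pathway. The egl-9 mutants with hif-1 intact stand above the others for irg-4, irg-5 and dod-24 and below them for dod-17.

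The first question was how the 10 genes differed when HIF-1 was stabilised by the egl-9 mutation with NMD intact. In egl-9, irg-4, irg-5, irg-6, dod-24 and dod-22 were higher than in N2, and irg-1 and dod-17 were lower, each past an adjusted p of 0.05 in edgeR's quasi-likelihood test. That is 5 higher and 2 lower of 10, where 11.9% of all tested genes were higher and 21.8% lower. The median log2 fold change of the 10 genes was 1.05, against -0.03 over all tested genes. Without irg-6, which passed the filter on low counts through the egl-9 mutants with hif-1 intact, 4 of 9 were higher.

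The CUB-like gene irg-4, an effector gene of the PMK-1 branch, had 179, 307, 439, 296 and 394 CPM in egl-9 libraries A to E, against 19.3, 14.5, 18.5, 18.6 and 19.5 CPM in N2 libraries A to E. The egl-9 libraries lay far above the N2 libraries, with A the lowest of the 5. The rise was 17.9-fold (log2 change 4.16 with SE 0.27, adjusted p 3.82e-16). For irg-5, another CUB-like gene of the PMK-1 branch and a common reporter of its activity, the values were 29.9, 45.9, 143, 50.2 and 91.9 CPM in egl-9, against 2.22, 1.48, 1.85, 2.44 and 2.67 CPM in N2. The egl-9 libraries of irg-5 differed among themselves by several-fold, with C the highest, and all lay above all N2 libraries. Of the 10 genes irg-5 had the largest fitted change in this comparison, 33.9-fold higher (log2 change 5.08 with SE 0.40, adjusted p 8.24e-14).

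The rarest of the 10, irg-6, is best read in counts. Its counts were 12, 9, 36, 10 and 13 in egl-9 libraries A to E, against 1, 1, 0, 0 and 1 in N2 libraries. The egl-9 libraries did not overlap the N2 libraries, of which each had 3 counts or fewer. Summed over the 5 libraries, 80 counts stood against 3, and after scaling for library size the ratio was 31.2 (95% interval 10.3 to 154), an exact interval that covers counting error only. The fitted change was called (adjusted p 1.62e-05 in edgeR), but its size rests on these few counts.

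The gene dod-24, which encodes a CUB-like protein, had 519, 562, 613, 602 and 650.1 CPM in egl-9, against 84.8, 68.3, 91.8, 89.6 and 79.9 CPM in N2. Replicates were close together in both genotypes, and the groups were far apart. The rise of dod-24 was 7.11-fold (log2 change 2.83 with SE 0.15, adjusted p 2.15e-19), the smallest adjusted p of the 10. Its neighbour dod-22, also CUB-like, had 12.2, 17.5, 16.3, 12.0 and 15.6 CPM in egl-9, against 6.03, 5.04, 5.404, 3.02 and 2.67 CPM in N2. The 2 groups of dod-22 did not overlap, and the rise was 3.28-fold (log2 change 1.72 with SE 0.26, adjusted p 1.50e-06).

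The 2 genes that fell had low to moderate levels in N2. The ZIP-2 target irg-1 had 0.478, 0.747, 0.779, 0.948 and 0.731 CPM in egl-9, against 5.68, 5.99, 7.51, 1.86 and 4.47 CPM in N2. Every egl-9 library was below every N2 library, and irg-1 was 6.92-fold lower (log2 change -2.79 with SE 0.44, adjusted p 2.69e-06). The CUB-like gene dod-17 had 2.39, 2.46, 2.42, 3.43 and 3.17 CPM in egl-9, against 30.9, 20.3, 34.5, 18.8 and 23.9 CPM in N2. These groups also stood apart, and dod-17 was 9.34-fold lower (log2 change -3.22 with SE 0.22, adjusted p 1.46e-15), although its start lies 10929 bp from that of dod-22, which rose.

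The other 3 genes did not pass the test against N2. The level of irg-2, a gene induced by Pseudomonas aeruginosa infection, was 0.666 ± 0.382 CPM in egl-9 and 1.10 ± 0.654 CPM in N2 (SD, n = 5 each; log2 change -0.73 with SE 0.51, adjusted p 0.289). For irg-3, another gene of the Pseudomonas response, it was 8.34 ± 0.974 CPM in egl-9 and 7.63 ± 1.66 CPM in N2 (log2 change 0.14 with SE 0.21, adjusted p 0.670). The gene irg-7, whose large protein is known to be needed for pathogen resistance through the PMK-1 branch, had 477, 663, 599, 348 and 614 CPM in egl-9, against 425, 410.5, 513, 319 and 396 CPM in N2. The groups overlapped (log2 change 0.39 with SE 0.17, adjusted p 0.0835), and irg-7 passed the test when N2 replicate C (adjusted p 0.0452) or egl-9 replicate D (adjusted p 0.0211) was left out. Among markers of other cell types, all 6 sperm markers were lower in egl-9 than in N2, with a summed level of 96.9 to 225 CPM in egl-9 and 236 to 380.4 CPM in N2 and none at 0. The intestine markers summed to 4486 to 5756 CPM in egl-9 and 4175 to 5087 CPM in N2, with 1 of 12 higher and 3 lower. Of 4 pharynx markers 3 were lower, with sums of 369.6 to 548 CPM in egl-9 and 523 to 875 CPM in N2. The part of the sperm and pharynx markers in the changes of the 10 genes was not tested.

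The same comparison in the smg mutants used separate libraries throughout. In smg-1 egl-9 versus smg-1, 6 of 10 genes were higher and 3 lower, where 25.1% of all tested genes were higher and 25.3% lower. In smg-2 egl-9 versus smg-2 the counts were also 6 and 3, where 19% of all tested genes were higher and 21.9% lower. The genes irg-4, irg-5, irg-6, dod-24 and dod-22 were higher and irg-1 and dod-17 lower in both, as in egl-9 versus N2. Beside these, irg-2 was lower in both smg backgrounds, irg-3 was higher in the smg-1 background and irg-7 was higher in the smg-2 background. Here too the filter on low counts, which irg-6 passed through the egl-9 mutants with hif-1 intact, favoured its call as higher. Of 8 germline and oocyte markers 6 were higher in the smg-1 background, with sums of 4172 to 5213 CPM in smg-1 egl-9 and 2173 to 3830.0 CPM in smg-1, and 5 in the smg-2 background, with 4859 to 5783 CPM in smg-2 egl-9 and 2439 to 4332 CPM in smg-2. Of 6 sperm markers 5 were lower in each. Of 4 pharynx markers all 4 were lower in the smg-1 background, with sums of 343 to 584 CPM in smg-1 egl-9 and 621 to 837 CPM in smg-1, and 2 in the smg-2 background, with 516 to 758 CPM in smg-2 egl-9 and 482 to 879 CPM in smg-2. The part of these markers in the changes of the 10 genes was not tested.

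The level of irg-4 was 343 ± 102 CPM in smg-1 egl-9 and 27.3 ± 2.94 CPM in smg-1 (SD, n = 5 each), 12.59-fold higher (log2 change 3.65 with SE 0.27, adjusted p 1.17e-14). It was 237 ± 76.3 CPM in smg-2 egl-9 and 23.1 ± 6.76 CPM in smg-2, 10.3-fold higher (log2 change 3.36 with SE 0.26, adjusted p 1.06e-13). For irg-5 the libraries A to E had 11.2, 19.5, 39.0, 17.5 and 29.3 CPM in smg-1 egl-9, against 2.40, 1.34, 2.22, 1.47 and 1.77 CPM in smg-1. They had 13.03, 12.2, 25.98, 16.1 and 28.9 CPM in smg-2 egl-9, against 1.69, 1.16, 1.77, 2.55 and 2.26 CPM in smg-2. Within each background the groups did not overlap. The rises of irg-5, 12.7-fold in the smg-1 background (adjusted p 3.59e-10) and 10.3-fold in the smg-2 background (adjusted p 2.54e-09), were smaller in size than with NMD intact. The test of that difference gave a log2 value of -1.41 (SE 0.52, adjusted p 0.0766) for smg-1 and -1.72 (SE 0.52, adjusted p 0.0548) for smg-2, neither past 0.05. DESeq2's Wald test called both (adjusted p 0.0400 and 0.0116), as did limma on log2(TPM + 1) (0.0170 and 0.0160). Without egl-9 replicate A, the lowest of the egl-9 libraries for irg-5, edgeR called both (0.0473 and 0.0244). For irg-6, 96 counts in smg-1 egl-9 stood against 1 in smg-1, a ratio of 84.5 (95% interval 14.8 to 3370.0). In the smg-2 background 43 counts in smg-2 egl-9 stood against 2 in smg-2, a ratio of 22.5 (95% interval 5.86 to 192).

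The values of dod-24 were 642, 759.9, 810.1, 766 and 886 CPM in smg-1 egl-9, against 66.9, 58.7, 46.2, 78.3 and 79.2 CPM in smg-1. In the smg-2 background they were 480.1, 487, 558, 576 and 652 CPM in smg-2 egl-9, against 81.8, 66.3, 70.2, 89.2 and 91.2 CPM in smg-2. The rises of dod-24 were thus 11.7-fold (log2 change 3.55 with SE 0.15, adjusted p 6.03e-22) and 6.91-fold (log2 change 2.79 with SE 0.15, adjusted p 4.40e-19). The smg-1 background had the larger effect, and the difference from the NMD-intact background was called (log2 0.72, SE 0.19, adjusted p 0.0188), although leaving out smg-1 replicate C gave an adjusted p of 0.0599 and limma on the deposited log2 values 0.0528. The smg-2 background gave a small value that did not pass the test (log2 -0.04, SE 0.19, adjusted p 0.948). For dod-22 the level was 22.7 ± 4.79 CPM in smg-1 egl-9 and 7.96 ± 2.64 CPM in smg-1 (log2 change 1.53 with SE 0.26, adjusted p 4.97e-06). It was 24.1 ± 4.45 CPM in smg-2 egl-9 and 6.62 ± 3.19 CPM in smg-2 (log2 change 1.84 with SE 0.26, adjusted p 2.80e-07).

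Among the genes that fell, irg-1 had 0.635, 0.395, 1.14, 0.967 and 0.697 CPM in smg-1 egl-9, against 6.10, 8.25, 13.5, 4.85 and 5.60 CPM in smg-1. It had 1.15, 1.61, 2.33, 0.675 and 1.505 CPM in smg-2 egl-9, against 4.40, 9.81, 13.8, 3.35 and 5.398 CPM in smg-2. In both backgrounds every egl-9 mutant library was below every library with egl-9 intact, by 9.61-fold (adjusted p 5.50e-08) and 5.03-fold (adjusted p 9.99e-06). The values of dod-17 were 5.46, 5.82, 7.11, 5.32 and 7.34 CPM in smg-1 egl-9, against 33.8, 33.1, 30.5, 19.4 and 26.9 CPM in smg-1, and 8.56, 4.61, 7.30, 6.99 and 7.44 CPM in smg-2 egl-9, against 31.1, 32.2, 49.2, 26.9 and 31.9 CPM in smg-2. The falls of dod-17, 4.598-fold and 4.93-fold, were again without overlap. The effect of egl-9 on dod-17 was smaller in the smg-1 background than with NMD intact by a log2 value of 1.02 (SE 0.29, adjusted p 0.0256), a call that was lost in limma (adjusted p 0.155) and without egl-9 replicate B (0.0512), N2 replicate C (0.0554) or smg-1 egl-9 replicate E (0.0563). In the smg-2 background the value was 0.92 (SE 0.29, adjusted p 0.0670), and the threshold was passed without smg-2 egl-9 replicate B, smg-2 replicate C, N2 replicate D or egl-9 replicate D. Over the 10 genes, 2 were called as positive in the smg-1 interaction, where 5.78% of all tested genes were positive and 3.15% negative. In the smg-2 interaction edgeR called 0, where 1.69% of all tested genes were positive and 1.96% negative. In the smg-2 interaction, 3 of the 10 had an unadjusted p under 0.05, DESeq2's Wald test called 1 (irg-5), limma called 1 and edgeR with the replicate letter as a block called 3.

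The level of irg-2 was 0.318, 0.395, 2.13, 0.645 and 1.11 CPM in smg-1 egl-9, against 2.81, 4.41, 9.26, 4.58 and 4.05 CPM in smg-1. In the smg-2 background it was 2.23, 1.42, 2.04, 1.04 and 1.29 CPM in smg-2 egl-9, against 4.95, 3.10, 8.74, 2.28 and 1.90 CPM in smg-2. The groups were apart in the smg-1 background and overlapped in the smg-2 background, with falls of 5.11-fold (log2 change -2.35 with SE 0.44, adjusted p 3.08e-05) and 2.69-fold (log2 change -1.43 with SE 0.43, adjusted p 0.00677). The smg-2 call was lost without smg-2 replicate C, the highest library (adjusted p 0.0777). The rise of irg-3 in the smg-1 background (log2 change 0.62 with SE 0.21, adjusted p 0.0118) was lost without smg-1 egl-9 replicate C (adjusted p 0.0586). In smg-2 egl-9, irg-7 had 567 to 702 CPM, against 319 to 510.0 CPM in smg-2, a rise of 1.49-fold (log2 change 0.58 with SE 0.17, adjusted p 0.00724).

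**Figure D2:**
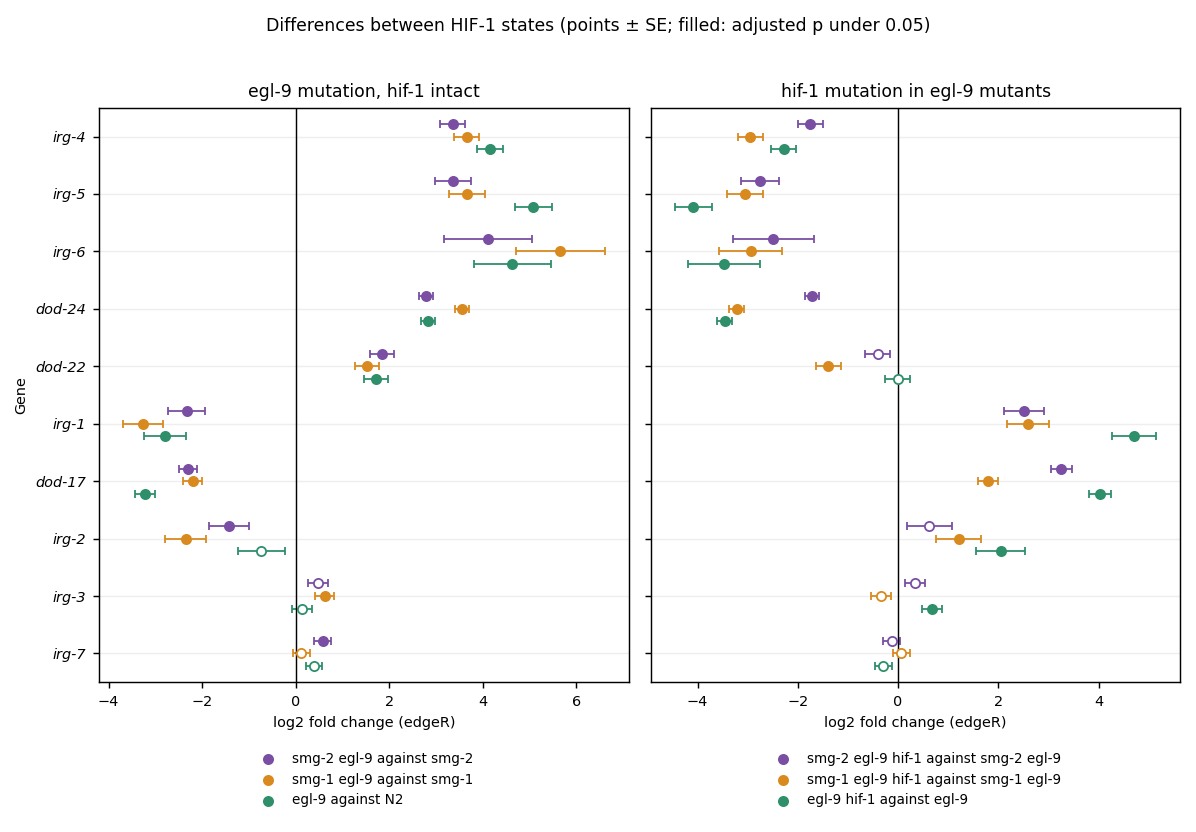
Log2 fold changes of the 10 genes in edgeR, with bars of 1 SE, for the egl-9 mutation (left) and for the hif-1 mutation in egl-9 mutants (right) in 3 NMD backgrounds; filled points have an adjusted p under 0.05. Genes above 0 on the left lie below 0 on the right for irg-4, irg-5, irg-6 and dod-24, and irg-1 and dod-17 do the opposite. The fitted sizes of irg-6 depend on the prior count, since it had few or no counts in several genotypes.

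The next question was whether these differences needed hif-1. In egl-9 hif-1 versus egl-9, 4 of the 10 genes were higher and 4 lower, where 26.7% of all tested genes were higher and 20% lower. The higher ones were irg-1, dod-17, irg-2 and irg-3, and the lower ones irg-4, irg-5, irg-6 and dod-24. Since irg-6 passed the filter on low counts through the egl-9 mutants with hif-1 intact, the filter favoured its call as lower. The median log2 fold change of the 10 was -0.15, against 0.05 over all tested genes. The same egl-9 libraries served here and in the comparison with N2, so the 2 sets of values are not independent.

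In egl-9 hif-1, irg-4 had 38.2, 50.3, 88.8, 55.9 and 98.7 CPM, against the egl-9 values given above. It was 4.86-fold lower (log2 change -2.28 with SE 0.25, adjusted p 6.70e-10), with no overlap. The values of irg-5 were 2.32, 2.91, 5.18, 4.58 and 6.23 CPM in egl-9 hif-1, 16.9-fold lower than in egl-9 (log2 change -4.08 with SE 0.37, adjusted p 6.57e-12). The counts of irg-6 were 0, 3, 0, 1 and 3 in egl-9 hif-1, and their sum was lower than in egl-9 by a factor of 12.3 (95% interval 5.71 to 31.6). For dod-24, egl-9 hif-1 had 46.7, 39.4, 55.4, 51.5 and 74.7 CPM and was 10.99-fold lower (log2 change -3.46 with SE 0.15, adjusted p 6.56e-22). Each of the 4 thus stood in egl-9 hif-1 below every egl-9 library.

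The level of irg-1 was 11.42, 22.3, 33.1, 11.5 and 18.4 CPM in egl-9 hif-1, 26.1-fold higher than in egl-9 (log2 change 4.71 with SE 0.45, adjusted p 1.87e-11). The level of dod-17 was 38.2, 42.6, 58.9, 29.4 and 55.5 CPM in egl-9 hif-1, 16.3-fold higher (log2 change 4.03 with SE 0.22, adjusted p 1.86e-18). Neither group overlapped that of egl-9. With 2.32, 2.34, 5.80, 2.45 and 1.74 CPM in egl-9 hif-1, irg-2 was 4.13-fold higher (log2 change 2.05 with SE 0.49, adjusted p 6.23e-04). The rise of irg-3, with a mean of 13.3 ± 3.69 CPM in egl-9 hif-1 and 8.34 ± 0.974 CPM in egl-9 (log2 change 0.68 with SE 0.21, adjusted p 0.00691), was lost in limma (adjusted p 0.0701) and without egl-9 hif-1 replicate E (0.0783).

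The gene dod-22 was the exception among the genes that had risen. Its values were 10.2, 12.78, 25.1, 12.1 and 13.2 CPM in egl-9 hif-1, against 12.2, 17.5, 16.3, 12.0 and 15.6 CPM in egl-9. The groups overlapped, with replicate C the highest in egl-9 hif-1, and the means were 14.7 ± 5.93 CPM in egl-9 hif-1 and 14.7 ± 2.46 CPM in egl-9 (log2 change -0.01 with SE 0.25, adjusted p 0.976). For irg-7, 441 ± 79.8 CPM in egl-9 hif-1 and 540.1 ± 127 CPM in egl-9 did not differ past the threshold (log2 change -0.29 with SE 0.17, adjusted p 0.168). All 6 sperm markers were higher in the egl-9 hif-1 double mutant than in egl-9 (338 to 467 CPM in egl-9 hif-1), and 3 of 8 germline and oocyte markers were lower, with sums of 3485 to 6422 CPM in egl-9 hif-1 and 6151 to 6778 CPM in egl-9. Their part in these differences was not tested.

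In the smg-1 triple mutant versus smg-1 egl-9, 3 of the 10 genes were higher and 5 lower, where 24% of all tested genes were higher and 25.7% lower. In the smg-2 triple mutant versus smg-2 egl-9, 2 were higher and 4 lower, where 28.4% of all tested genes were higher and 29.2% lower. In both, irg-1 and dod-17 were higher and irg-4, irg-5, irg-6 and dod-24 lower. In the smg-1 background irg-2 was also higher and dod-22 lower. The filter on low counts favoured the call of irg-6 as lower here as well. Of 8 germline and oocyte markers 7 were lower in the smg-1 triple mutant, with sums of 2566 to 3947 CPM, and all 8 in the smg-2 triple mutant, with sums of 1450.3 to 2419 CPM. Of 6 sperm markers all 6 and 4 were higher, in the same order, and of 4 pharynx markers all 4 and 2. The pharynx markers summed to 439.7 to 1039 CPM in the smg-1 triple mutant and 498 to 782 CPM in the smg-2 triple mutant, and the part of these markers was not tested.

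The values of dod-24 were 71.5, 79.1, 101, 92.4 and 71.0 CPM in the smg-1 triple mutant, 9.30-fold lower than in smg-1 egl-9 (log2 change -3.22 with SE 0.15, adjusted p 1.01e-20). They were 160.3, 154, 163, 153 and 205 CPM in the smg-2 triple mutant, 3.30-fold lower than in smg-2 egl-9 (log2 change -1.72 with SE 0.14, adjusted p 2.18e-13). The drop was smaller in the smg-2 background than with NMD intact, and dod-24 in the smg-2 triple mutant stood above all libraries of the other genotypes except the egl-9 mutants with hif-1 intact. The test of that difference against the NMD-intact background gave a log2 value of 1.74 (SE 0.20, adjusted p 8.43e-09), and that of the smg-1 background 0.24 (SE 0.19, adjusted p 0.546).

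The values of dod-17 were 23.4, 24.3, 22.6, 19.1 and 18.8 CPM in the smg-1 triple mutant, 3.46-fold higher than in smg-1 egl-9 (log2 change 1.79 with SE 0.20, adjusted p 1.57e-09). In the smg-2 triple mutant they were 73.5, 73.7, 77.6, 40.9 and 65.9 CPM, 9.53-fold higher than in smg-2 egl-9 (log2 change 3.25 with SE 0.21, adjusted p 1.29e-16). With hif-1 mutated dod-17 was thus higher in every background, with the smallest rise in the smg-1 background. The difference in effect from the NMD-intact background was called for smg-1 (log2 -2.24, SE 0.29, adjusted p 9.19e-07) and missed the threshold for smg-2 (log2 -0.78, SE 0.29, adjusted p 0.0516), which it passed without egl-9 hif-1 replicate A or D, smg-2 egl-9 replicate B or egl-9 replicate D.

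For irg-1 the values were 4.18, 6.22, 8.05, 2.24 and 2.99 CPM in the smg-1 triple mutant, 6.00-fold higher than in smg-1 egl-9 (log2 change 2.58 with SE 0.42, adjusted p 3.40e-06). They were 8.13, 11.2, 6.96, 6.09 and 9.62 CPM in the smg-2 triple mutant, 5.73-fold higher than in smg-2 egl-9 (log2 change 2.52 with SE 0.40, adjusted p 1.25e-06). Both rises were smaller than the 26.1-fold with NMD intact. The difference was called for smg-2 (log2 -2.19, SE 0.59, adjusted p 0.00687) and, narrowly, for smg-1 (log2 -2.12, SE 0.62, adjusted p 0.0441). The smg-1 call was lost with DESeq2 size factors (adjusted p 0.0743), without a filter on low counts (0.106) and without replicate C of egl-9 hif-1 (0.171), the highest irg-1 library of all 45. It was also lost without egl-9 hif-1 replicate B or E, egl-9 replicate A, C or E, smg-1 egl-9 replicate C, D or E, or the smg-1 triple mutant replicate A, D or E.

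With 6.64, 10.5, 9.95, 9.89 and 6.32 CPM in the smg-1 triple mutant, against 15.3, 25.02, 28.1, 21.5 and 23.5 CPM in smg-1 egl-9, dod-22 was 2.62-fold lower (log2 change -1.39 with SE 0.25, adjusted p 1.66e-05). The groups did not overlap. In the smg-2 background they did, with 23.9, 16.5, 17.9, 14.0 and 18.6 CPM in the smg-2 triple mutant, against 22.6, 18.1, 30.3, 23.6 and 25.8 CPM in smg-2 egl-9 (log2 change -0.41 with SE 0.25, adjusted p 0.153). The effect of hif-1 on dod-22 differed between the smg-1 and the NMD-intact background by a log2 value of -1.38 (SE 0.35, adjusted p 0.0193), a call lost without egl-9 hif-1 replicate C (adjusted p 0.138) or E (0.0586) and in limma (0.0968). The same difference for irg-3 was -1.02 (SE 0.29, adjusted p 0.0380) and was lost with DESeq2 size factors (adjusted p 0.0915), in limma (0.127) and without egl-9 replicate A, B or E, egl-9 hif-1 replicate C, smg-1 egl-9 replicate C or E, the smg-1 triple mutant replicate A, B, D or E or, with the largest adjusted p, egl-9 hif-1 replicate E (0.231). In the smg-1 interaction with hif-1, 4 of the 10 genes were called as negative, where 0.766% of all tested genes were positive and 2.82% negative. In the smg-2 interaction 1 was positive and 1 negative, where 4.75% of all tested genes were positive and 15.4% negative.

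The genes irg-4 and irg-5 of the PMK-1 branch fell in both smg backgrounds, while irg-7 was not called in either. The level of irg-4 was 44.5 ± 12.57 CPM in the smg-1 triple mutant and 343 ± 102 CPM in smg-1 egl-9 (SD, n = 5 each; log2 change -2.94 with SE 0.26, adjusted p 2.48e-12). It was 70.5 ± 15.2 CPM in the smg-2 triple mutant and 237 ± 76.3 CPM in smg-2 egl-9 (log2 change -1.75 with SE 0.25, adjusted p 1.21e-07). The falls of irg-5 were 8.28-fold in the smg-1 background (adjusted p 6.95e-09) and 6.76-fold in the smg-2 background (adjusted p 5.30e-08). The smg-2 value differed from that with NMD intact by a log2 value of 1.33 (SE 0.50, adjusted p 0.0559), which did not pass the threshold. It passed with DESeq2 size factors (0.0425), in limma (0.0119), with DESeq2's Wald test (0.0193) and with a changed filter on low counts. It also passed without egl-9 replicate A, B or D, egl-9 hif-1 replicate C or E, smg-2 egl-9 replicate C or E, or replicate B, C, D or E of the smg-2 triple mutant. For irg-6, 14 counts in the smg-1 triple mutant, of which 10 came from replicate C, stood against 96 in smg-1 egl-9, lower by a factor of 8.23 (95% interval 4.68 to 15.6). Without replicate C, the library with the high sum of HIF-1 targets, the factor was 22.01 (95% interval 8.32 to 82.4). Similarly, 6 counts in the smg-2 triple mutant, of which 5 came from replicate A, stood against 43 in smg-2 egl-9, lower by a factor of 6.58 (95% interval 2.79 to 18.9), and without replicate A by a factor of 34.3 (95% interval 5.84 to 1388). The irg-6 call in the smg-2 background was lost without the smg-2 triple mutant replicate B (adjusted p 0.0639). The rise of irg-2 in the smg-1 background (log2 change 1.21 with SE 0.45, adjusted p 0.0223) was lost without smg-1 egl-9 replicate A (0.0661), B (0.0665) or D (0.0536) or the smg-1 triple mutant replicate B (0.0793).

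The egl-9 hif-1 mutants were next set against the genotypes with both genes intact. In egl-9 hif-1 versus N2, 6 of the 10 genes were higher and 1 lower, where 9.65% of all tested genes were higher and 4.85% lower. The higher ones were irg-1, irg-2, irg-3, irg-4, dod-17 and dod-22, and the lower one was dod-24. The level of irg-4 was 66.4 ± 26.01 CPM in egl-9 hif-1 and 18.1 ± 2.06 CPM in N2 (log2 change 1.88 with SE 0.25, adjusted p 1.18e-06). Thus irg-4 in egl-9 hif-1 stood between egl-9 and N2, without overlap with either. The level of irg-1 was 19.3 ± 8.99 CPM in egl-9 hif-1 and 5.10 ± 2.11 CPM in N2 (log2 change 1.91 with SE 0.36, adjusted p 3.46e-04), on the opposite side of N2 from egl-9. The same held for dod-17, with 44.9 ± 12.2 CPM in egl-9 hif-1 and 25.7 ± 6.77 CPM in N2 (log2 change 0.81 with SE 0.19, adjusted p 0.00326). For dod-24, 53.5 ± 13.2 CPM in egl-9 hif-1 and 82.9 ± 9.37 CPM in N2 gave a log2 change of -0.63 (with SE 0.14, adjusted p 0.00202). The rise of dod-22 was 3.26-fold (adjusted p 1.82e-05). The calls of irg-3 and irg-2 depended on the libraries used: that of irg-3 (0.81 in log2, adjusted p 0.00683) was lost without egl-9 hif-1 replicate E (adjusted p 0.0591), and that of irg-2 (1.31, adjusted p 0.0425) without egl-9 hif-1 replicate C (0.248) or N2 replicate B, C, D or E (0.0660 to 0.104).

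In the smg-1 triple mutant versus smg-1, 0 of the 10 genes were called by edgeR, where 0.417% of all tested genes were higher and 0.473% lower. Of the 10, 5 had an unadjusted p under 0.05, and DESeq2's Wald test and limma also called 0. With the replicate letter as a block, edgeR called 1. The smallest adjusted p was that of irg-4 (0.267), with 44.5 ± 12.57 CPM in the smg-1 triple mutant and 27.3 ± 2.94 CPM in smg-1. In the smg-2 triple mutant versus smg-2, 6 of the 10 were higher and 0 lower, where 11% of all tested genes were higher and 18.6% lower. They were irg-3, irg-4, irg-7, dod-17, dod-22 and dod-24. The largest of these was irg-4, with 70.5 ± 15.2 CPM in the smg-2 triple mutant and 23.1 ± 6.76 CPM in smg-2 (log2 change 1.61 with SE 0.25, adjusted p 2.77e-06). For dod-24, 167 ± 21.4 CPM in the smg-2 triple mutant and 79.7 ± 11.1 CPM in smg-2 were a rise (log2 change 1.07 with SE 0.14, adjusted p 9.92e-08), whereas dod-24 was lower in the egl-9 hif-1 double mutant than in N2. The call of irg-7 (log2 change 0.45 with SE 0.17, adjusted p 0.0470) was lost in limma (adjusted p 0.0929) and without smg-2 replicate D (0.145) or the smg-2 triple mutant replicate A (0.128) or C (0.0600). In the smg-2 triple mutant the germline and oocyte markers summed to 1450.3 to 2419 CPM, against 2439 to 4332 CPM in smg-2, with none of the 8 at 0, and their part in these rises was not tested.

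The last comparisons asked how loss of NMD changed the 10 genes within each HIF-1 state. In smg-1 versus N2, 3 were higher (irg-2, irg-4 and dod-22) and 1 lower (dod-24), where 28.8% of all tested genes were higher and 24.3% lower. In smg-2 versus N2, irg-2 alone was called, as higher, where 24.3% of all tested genes were higher and 19.6% lower. The values of irg-2 were 2.81, 4.41, 9.26, 4.58 and 4.05 CPM in smg-1 and 4.95, 3.10, 8.74, 2.28 and 1.90 CPM in smg-2, against 2.09, 1.42, 0.725, 0.514 and 0.733 CPM in N2. The smg-1 libraries lay above all N2 libraries, while the smg-2 libraries overlapped them. The rise was 4.29-fold in smg-1 (log2 change 2.10 with SE 0.44, adjusted p 1.14e-04) and 3.70-fold in smg-2 (log2 change 1.89 with SE 0.44, adjusted p 5.33e-04).

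The other 3 calls in smg-1 versus N2 were each lost in part of the fits that left out 1 library. For dod-22 (log2 change 0.81 with SE 0.27, adjusted p 0.00960) the call was lost without smg-1 replicate C (adjusted p 0.0779). For irg-4 (log2 change 0.59 with SE 0.25, adjusted p 0.0422) it was lost in 8 of the 10 fits that each left out 1 library, namely without N2 replicate A, B, C or D or smg-1 replicate A, B, C or E. For dod-24 (log2 change -0.33 with SE 0.14, adjusted p 0.0422) it was lost without N2 replicate A, C or D or smg-1 replicate B or C. The germline and oocyte markers moved in these comparisons: all 8 were lower in smg-1 and in smg-2 than in N2, with sums of 2173 to 3830.0 CPM in smg-1 and 2439 to 4332 CPM in smg-2, against 5559 to 6719 CPM in N2. The intestine markers summed to 3938 to 5064 CPM in smg-1 and 3888 to 5295 CPM in smg-2. The part of these markers in the values of the 10 genes was not tested.

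In egl-9 mutants, irg-5 was lower in both smg backgrounds. It had 11.2, 19.5, 39.0, 17.5 and 29.3 CPM in smg-1 egl-9 and 13.03, 12.2, 25.98, 16.1 and 28.9 CPM in smg-2 egl-9, against 29.9, 45.9, 143, 50.2 and 91.9 CPM in egl-9. The ranges overlapped for smg-1 egl-9 and did not for smg-2 egl-9. The fall was 3.09-fold in smg-1 egl-9 (log2 change -1.63 with SE 0.33, adjusted p 1.10e-04) and 3.75-fold in smg-2 egl-9 (log2 change -1.91 with SE 0.33, adjusted p 8.97e-06). The gene dod-17 rose in both, 2.27-fold in smg-1 egl-9 (adjusted p 3.95e-05) and 2.53-fold in smg-2 egl-9 (adjusted p 4.24e-06), although it stayed below its level with egl-9 intact. In each of the 2 comparisons 3 of the 10 genes were higher and 1 lower, where 24.1% of all tested genes were higher and 10.6% lower in smg-1 egl-9, and 23.6% were higher and 9.66% lower in smg-2 egl-9. With DESeq2 size factors, which moved the median of all genes by -0.08 and -0.11 in log2, the counts were 1 higher and 1 lower in each. Of 8 germline and oocyte markers 7 were lower than in egl-9 with smg-1 mutated and 1 with smg-2 mutated, and their part was not tested.

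The remaining calls in egl-9 mutants were within 2-fold. They were those of dod-22 and dod-24 in smg-1 egl-9 (log2 0.63 and 0.39) and of dod-22 and irg-3 in smg-2 egl-9 (log2 0.71 and 0.55). All 4 were lost with DESeq2 size factors, with adjusted p of 0.0797, 0.0746, 0.0503 and 0.0853 in the same order. Each was also lost without egl-9 replicate A. The dod-22 call in smg-1 egl-9 was lost without egl-9 replicate C, D or E or smg-1 egl-9 replicate B, C, D or E as well, and that of dod-24 without smg-1 egl-9 replicate C or E. In smg-2 egl-9 the dod-22 call was lost without egl-9 replicate D or smg-2 egl-9 replicate C, and that of irg-3 without egl-9 replicate B, D or E or smg-2 egl-9 replicate C or E. By contrast irg-4 gave a log2 difference of 0.09 (SE 0.24) in smg-1 egl-9 and -0.44 (SE 0.24) in smg-2 egl-9, neither past the threshold. For irg-6, 96 counts in smg-1 egl-9 against 80 in egl-9 gave a ratio of 0.932 (95% interval 0.685 to 1.27). With 43 counts, smg-2 egl-9 gave a ratio of 0.475 (95% interval 0.320 to 0.696), an interval of counting error alone, and the fit over replicates gave an adjusted p of 0.154.

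In egl-9 hif-1 mutants each smg mutation was set against the strain with NMD intact. In the smg-1 triple mutant versus egl-9 hif-1, 1 of the 10 genes was higher (dod-24) and 4 were lower (irg-1, irg-3, dod-17 and dod-22), where 18.6% of all tested genes were higher and 18% lower. In the smg-2 triple mutant versus egl-9 hif-1, 2 were higher (dod-24 and dod-17) and 1 lower (irg-1), where 25.8% of all tested genes were higher and 26% lower. The gene dod-17 was 2.08-fold lower in the smg-1 triple mutant (log2 change -1.05 with SE 0.19, adjusted p 1.59e-05) and 1.48-fold higher in the smg-2 triple mutant (log2 change 0.56 with SE 0.19, adjusted p 0.0103). The rise of dod-24 was 1.55-fold in the smg-1 triple mutant (adjusted p 3.07e-04) and 3.12-fold in the smg-2 triple mutant (adjusted p 3.96e-13). The gene irg-1 was lower in both, by 4.07-fold (adjusted p 1.43e-05) in the smg-1 triple mutant and 2.29-fold (adjusted p 0.00410) in the smg-2 triple mutant. The last call was lost without egl-9 hif-1 replicate C (adjusted p 0.0571). So was that of dod-22 in the smg-1 triple mutant (adjusted p 0.201), which was also lost without the smg-1 triple mutant replicate E (0.0575). The irg-3 call in the smg-1 triple mutant (log2 change -0.52 with SE 0.20, adjusted p 0.0423) was lost with DESeq2 size factors (adjusted p 0.0655), in limma (0.106) and without replicate C or E of egl-9 hif-1 or replicate A, B, D or E of the smg-1 triple mutant. The 2 smg triple mutants were not tested against each other. All 8 germline and oocyte markers were lower in both than in egl-9 hif-1 (3485 to 6422 CPM). Of 6 sperm markers 5 were lower in the smg-2 triple mutant than in egl-9 hif-1, with sums of 205 to 271 CPM against 338 to 467 CPM, while in the smg-1 triple mutant 1 was higher and 0 lower, with 327 to 409 CPM. The part of these markers was not tested.

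**Figure D3:**
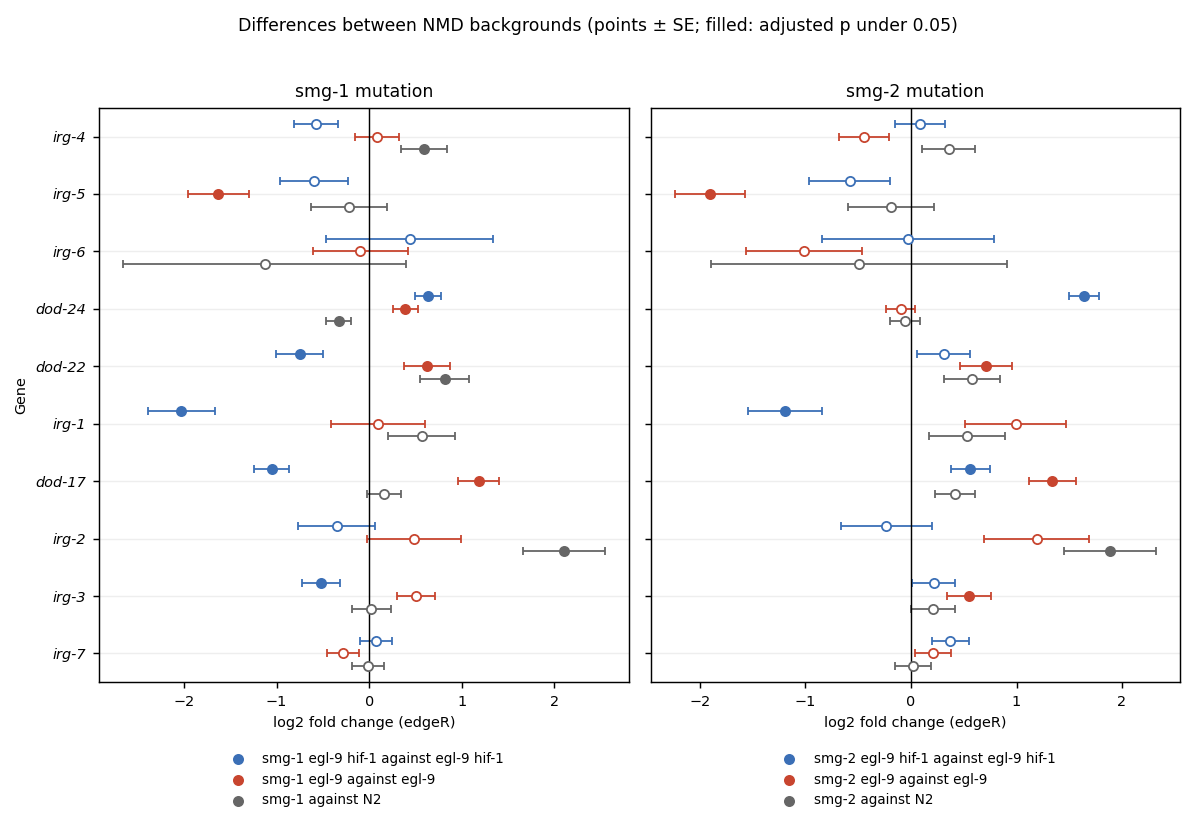
Log2 fold changes of the 10 genes in edgeR, with bars of 1 SE, for the smg-1 mutation (left) and the smg-2 mutation (right) in the 3 HIF-1 states; filled points have an adjusted p under 0.05. In both panels irg-5 is lower in the egl-9 state and irg-2 higher in the intact state, and dod-17 in the egl-9 hif-1 state lies on opposite sides of 0. The fitted sizes of irg-6 depend on the prior count here too.

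The order of the 9 genotype means showed how separate these levels were. For irg-4, irg-5 and dod-24 the 3 egl-9 mutants with hif-1 intact held the 3 highest means, and their ranges overlapped among themselves for irg-4 and dod-24. For irg-5 the ranges of egl-9 and smg-2 egl-9 did not overlap, while smg-1 egl-9 overlapped both. For irg-1 and dod-17 the 3 egl-9 mutants with hif-1 intact held the 3 lowest. The highest irg-1 mean was that of egl-9 hif-1, with 11.42 to 33.1 CPM. That range did not overlap that of the next genotype, the smg-2 triple mutant, with 6.09 to 11.2 CPM. It did overlap those of smg-1 and smg-2, which reached 13.5 and 13.8 CPM. The highest dod-17 mean was that of the smg-2 triple mutant at 66.3 ± 14.8 CPM, followed by egl-9 hif-1 at 44.9 ± 12.2 CPM, with overlapping ranges. Adjacent genotype means of irg-2, irg-3, irg-6, irg-7 and dod-22 overlapped in their ranges at every step. Overlap between adjacent means does not imply overlap between genotypes further apart in the order.

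Correlations across the 45 libraries are given as a description of log2 CPM values that share genotypes and library depth. Pearson's r was 0.923 between irg-4 and irg-5, 0.907 between irg-5 and irg-6 and 0.896 between irg-4 and dod-24. Between irg-1 and dod-17 it was 0.903, and between irg-1 and dod-24 it was -0.859. The gene irg-7 had r between -0.202 and 0.431 with the other 9, and irg-3 had r over 0.5 with dod-22 alone (0.559). After subtraction of each genotype's mean, r was 0.725 for irg-4 with irg-5, 0.71 for irg-3 with irg-4 and 0.554 for irg-1 with dod-17. For irg-1 with dod-24 it became -0.180. The pair dod-17 and dod-22 had r of -0.324 over the libraries and 0.534 within genotypes, so replicates of a genotype that were high in the one tended to be high in the other. Replicate letter went with some of this spread: irg-4 was lowest in replicate A in 6 of 9 genotypes and highest in E in 5, dod-24 was highest in E in 7, and irg-1 was highest in C in 7.

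**Figure D4:**
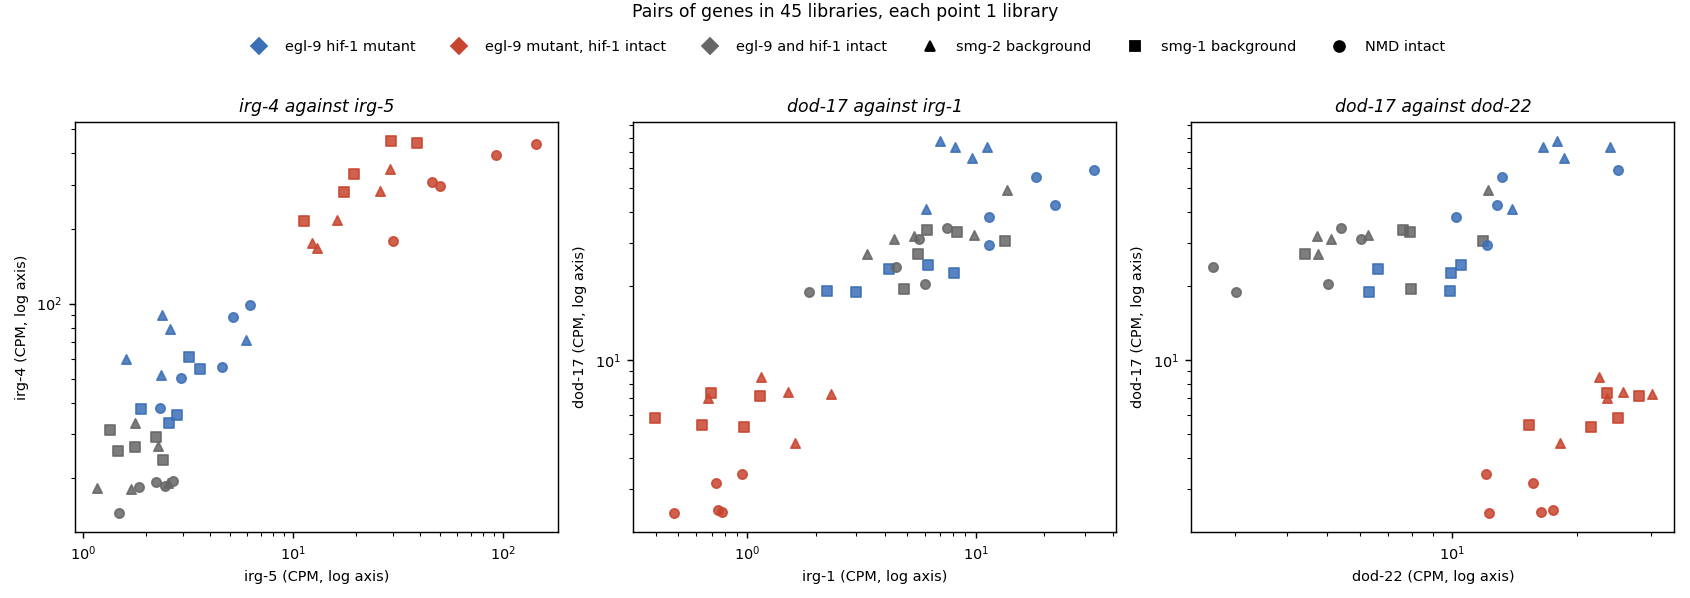
CPM of pairs of genes on log axes, with 1 point for each of 45 libraries, coloured by HIF-1 state and shaped by NMD background. The egl-9 mutants with hif-1 intact lie at the upper right for irg-4 against irg-5 and at the lower left for dod-17 against irg-1. For dod-17 against dod-22 they lie at the lower right, apart from the other libraries.

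Among 13967 other tested genes that averaged 1 CPM or more, the 3 most like each gene were found by Pearson's r of log2 CPM over the 45 libraries. For irg-4 they were clec-66 (r = 0.974), F55G11.8 (r = 0.972) and K08D8.5 (r = 0.965), of which F55G11.8 lies next to dod-22. For irg-5 they were W07G4.5 (r = 0.944), M05D6.5 (r = 0.943) and Y62E10A.13 (r = 0.941), and for irg-6 they were clec-210 (r = 0.881), Y62E10A.13 (r = 0.877) and nspe-3 (r = 0.875). Those of dod-24 were swm-1 (r = 0.958), WBGene00001706 (r = 0.958) and clec-222 (r = 0.956), and those of dod-22 were lys-2 (r = 0.940), lys-1 (r = 0.898) and K06G5.1 (r = 0.887). For dod-17 they were ZK228.3 (r = 0.958), cld-9 (r = 0.936) and Y45F10D.6 (r = 0.936), and for irg-1 F10A3.17 (r = 0.899), cld-9 (r = 0.896) and C50B6.7 (r = 0.882). The lists of irg-1 and dod-17 share cld-9, and those of irg-5 and irg-6 share Y62E10A.13. The list of irg-2 was led by C49G7.12 (r = 0.876), that of irg-3 by gst-13 (r = 0.864) and that of irg-7 by Y16B4A.2 (r = 0.894). Over the 9 genotype means the same r lay between 0.793 and 0.99.

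Other genes of the same branches were read from lists. These lists were chosen with earlier results of these data known, so their counts are a description and no independent support. Of 9 other PMK-1 effector genes measured, 6 were higher in egl-9 compared with N2 and 0 lower, where 11.9% of all tested genes were higher and 21.8% lower, with a median log2 fold change of 1.80, against -0.03 over all tested genes. The secreted protein gene sysm-1, a reporter of PMK-1 activity, averaged 37.2 ± 8.01 CPM in egl-9 and 2.63 ± 0.522 CPM in N2 (log2 change 3.84 with SE 0.36, adjusted p 1.96e-11). K08D8.5 starts within 10 kb of irg-6 and was also among the genes most like irg-4, so these sets of genes overlap. It averaged 25.1 ± 3.31 CPM in egl-9 and 7.2 ± 0.560 CPM in N2 (log2 change 1.80 with SE 0.16, adjusted p 4.06e-12). The C-type lectin genes clec-60 (4.21 in log2) and clec-67 (2.11) were higher too. In egl-9 hif-1 versus egl-9, 1 of the 9 was higher and 5 lower, where 26.7% of all tested genes were higher and 20% lower, among the lower ones clec-60 (-4.12 in log2), sysm-1 (-2.32) and K08D8.5 (-1.10). All 9 were higher in smg-1 egl-9 than in smg-1, where 25.1% of all tested genes were higher, and 8 of 9 in smg-2 egl-9 than in smg-2, where 19% were.

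The kinases and factors above these genes moved less. Of 6 genes of the PMK-1 cascade, 3 were higher in egl-9 compared with N2 and 0 lower. Over all tested genes, 11.9% were higher and 21.8% lower. All 3 changes were within 2-fold: tir-1 (0.61 in log2), the phosphatase gene vhp-1 (0.45) and sek-1 (0.42). The log2 values of nsy-1 (0.21), pmk-1 (0.04) and atf-7 (0.22) did not pass the test. Of 4 genes of the ZIP-2 group, zip-2 and zip-10 (log2 1.20) were higher in egl-9 compared with N2. The RNA of zip-2 was 178 ± 30.4 CPM in egl-9 and 83.9 ± 15.5 CPM in N2 (log2 change 1.08 with SE 0.13, adjusted p 1.75e-08), in the genotype where irg-1 was lower. It was also higher in smg-1 than in N2 (log2 1.87), in smg-2 than in N2 (1.99) and in the egl-9 hif-1 double mutant than in N2 (1.32), where irg-2 was higher as well. In smg-1 egl-9 versus smg-1 (0.32) and in smg-2 egl-9 versus smg-2 (0.55), zip-2 RNA was higher and irg-2 was lower. In egl-9 versus N2, irg-2 was not called. Between egl-9 hif-1 and egl-9, zip-2 RNA gave 0.23 and did not pass the test, and irg-1 rose 26.1-fold. RNA levels do not show the activity of these proteins, and the part of zip-2 in the levels of irg-1 and irg-2 was not tested.

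The intestinal GATA factor genes elt-2, elt-4 and elt-7 did not pass the test between egl-9 and N2 (log2 -0.10, 0.47 and -0.01). All 3 were higher in smg-1 than in N2, by log2 0.32, 1.10 and 0.47 in that order, where 28.8% of all tested genes were higher. The level of elt-4 was low, with 0.583 ± 0.203 CPM in smg-1 and 0.270 ± 0.125 CPM in N2. In smg-2 compared with N2, elt-7 was higher (0.51), where 24.3% of all tested genes were higher. There elt-2 (0.23) and elt-4 (0.73) did not pass the test. Of 8 targets that DAF-16 activates, 5 were higher in egl-9 compared with N2 and 1 was lower. They included the ferritin gene ftn-1 (log2 6.00), the metallothionein gene mtl-1 (5.86) and dod-3 (4.40) on the higher side and the metallothionein gene mtl-2 (-1.02) on the lower. Over all tested genes, 11.9% were higher and 21.8% lower in egl-9 than in N2. In egl-9 hif-1 versus egl-9, mtl-1 (-5.87), dod-3 (-4.05) and ftn-1 (-1.39) were lower and mtl-2 (1.09) was higher. Of 7 other tested irg and dod genes, 3 were higher in egl-9 compared with N2 and 1 lower, led by dod-3 and by dod-21, which starts within 10 kb of dod-24 (log2 4.30, adjusted p 4.08e-08). Of 10 genes of the insulin pathway itself, 1 was higher and 2 were lower in egl-9 than in N2, with no change of 2-fold or more. These insulin pathway counts lie near the shares over all tested genes.

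The group on chromosome IV was examined gene by gene. Over all 10 genes, 46 other coding genes start within 10 kb of one of them, and 37 were tested. Of these, 18 were higher in egl-9 compared with N2 and 4 lower, where 11.9% of all tested genes were higher and 21.8% lower. The median log2 fold change of the 37 was 0.65, against -0.03 over all tested genes. Around dod-22, F55G11.8 averaged 71.6 ± 9.75 CPM in egl-9 and 8.15 ± 1.53 CPM in N2 (log2 change 3.13 with SE 0.20, adjusted p 1.02e-16). On its other side F55G11.2 averaged 1.88 ± 0.717 CPM in egl-9 and 14.5 ± 3.37 CPM in N2 (log2 change -2.98 with SE 0.24, adjusted p 1.60e-13), and F55G11.4 averaged 133 ± 26.8 CPM in egl-9 and 13.6 ± 3.27 CPM in N2 (log2 change 3.29 with SE 0.23, adjusted p 4.12e-15). Along the chromosome the genes from dod-22 to dod-17 were therefore higher, lower, higher and lower in egl-9. In egl-9 hif-1 versus egl-9, F55G11.2 was higher (4.43 in log2), as dod-17 was, and F55G11.4 (-2.91) and F55G11.8 (-2.10) were lower. Near irg-5 on chromosome V, dct-17 was higher in egl-9 than in N2 (log2 change 2.55 with SE 0.13, adjusted p 6.97e-20) and lower in the egl-9 hif-1 double mutant than in egl-9 (log2 -1.98). Within 10 kb of irg-2, with C49G7.10 between them, lies C49G7.12, which was also the gene most like irg-2. C49G7.12 was lower in egl-9 than in N2 (log2 -2.41) and higher in the egl-9 hif-1 double mutant than in egl-9 (3.50). How the authors' counting divided reads between similar neighbouring genes is not given in the sources used here, so values of close relatives are uncertain.

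**Figure D5:**
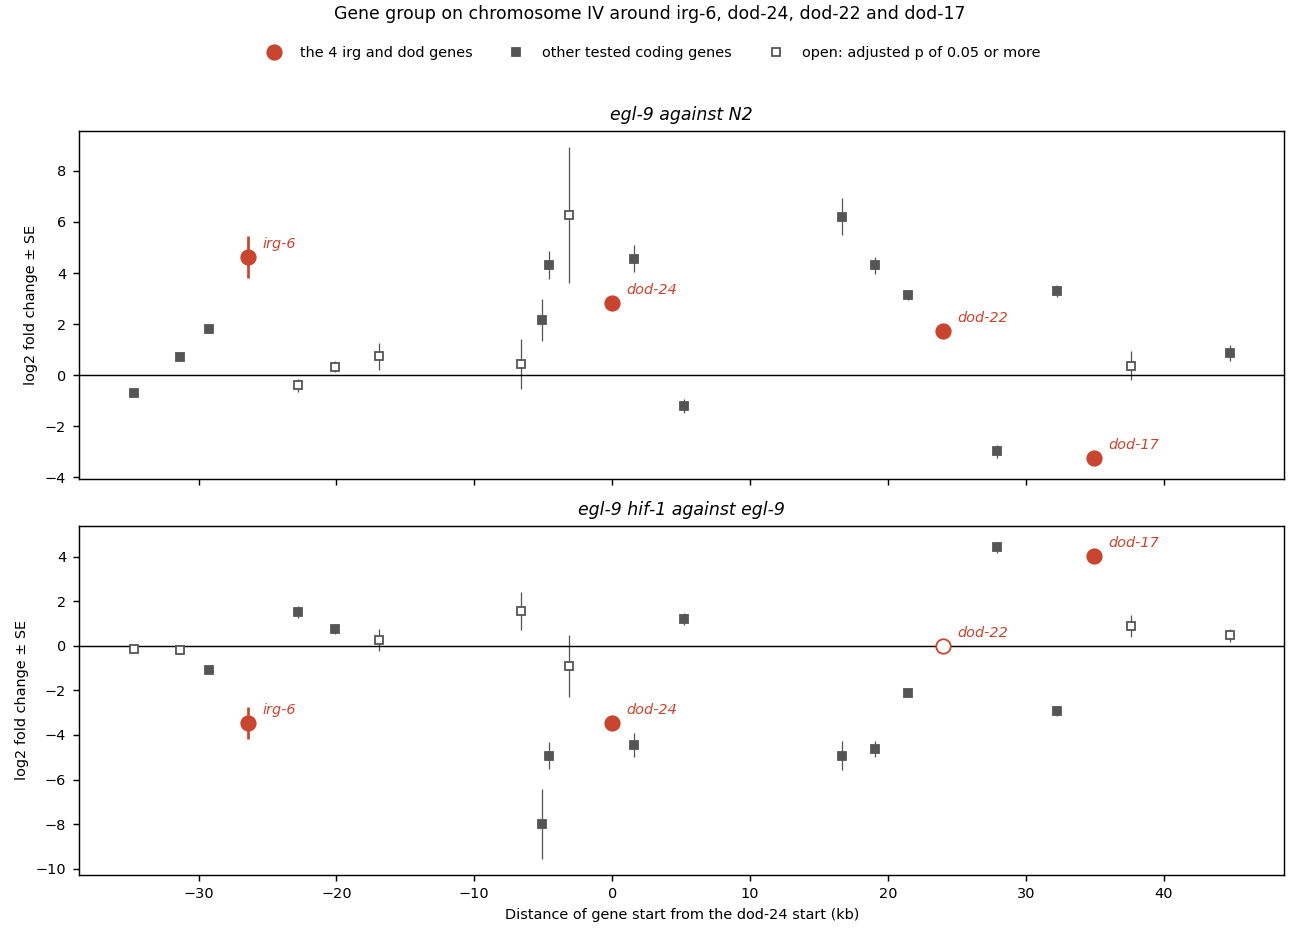
Log2 fold changes in edgeR, with bars of 1 SE, of the tested coding genes around irg-6, dod-24, dod-22 and dod-17 in egl-9 versus N2 (top) and egl-9 hif-1 versus egl-9 (bottom), by distance of each gene start from the dod-24 start in kb. Open symbols have an adjusted p of 0.05 or more. From dod-22 (24020 bp from dod-24) to dod-17 (34949 bp) the genes lie above and below 0 in turn in the top panel, and dod-17 lies on the opposite side of 0 from dod-24 in both panels. Genes with few counts in one of the genotypes have wide bars, and their fitted sizes depend on the prior count.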

How the data were processed

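The authors deposited a table of expected counts per gene and a table of log2(TPM + 1) values for the 45 libraries, made from 75 nt paired reads of directional libraries per the labels' protocols. The submitters' processing notes name FastQC, STAR 2.7.9a, RSEM 1.3.0, DESeq2 and the build WBcel235, and the gene annotation and the use of strand in counting are not given in the sources used here. Expected counts of close relatives depend on how reads that fit both were divided.

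The deposited expected counts were rounded to whole numbers and tested with edgeR 4.0.16 (R 4.3.3; quasi-likelihood F test, TMM normalisation, filterByExpr) in one fit of 9 genotype means with 36 residual degrees of freedom. Benjamini-Hochberg adjustment ran over the 16053 tested genes, and a gene was called at an adjusted p under 0.05. Genes that the filter left out held 0.0372% of counts. CPM were counts over TMM-scaled library sizes, and TPM were back-transformed from the deposited log2 values. Interactions are the effect in a smg background minus the effect with NMD intact. Correlations used log2 CPM with a prior count of 2. Alternatives were DESeq2 1.42.0 size factors, the DESeq2 Wald test, no filter, a mean of at least 5 CPM, the replicate letter as a block, the compared genotypes alone, limma 3.58.1 on the deposited log2 values and leaving out each library in turn. On simulated counts for egl-9 versus N2 over 16053 genes, 86 of 100 genes changed by 2-fold and 97 of 100 changed by 4-fold were recovered. For the smg-1 interaction with egl-9 they were 68 of 100 and 94 of 100. Unchanged genes that were called numbered 7 for egl-9 versus N2 and 9 for the interaction. The changed genes were drawn from those with higher mean counts than irg-6, so these rates do not apply to irg-6. The simulation changed few genes, in egl-9 alone, and held no effect of replicate letter. In the data 11.9% of all tested genes were higher and 21.8% lower in egl-9 versus N2, so the rates need not carry over to them.

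Total counts of 9822412 to 33169699 per library limit precision for the rarest gene, irg-6, which had at most 37 counts in a library. Replicate pairs of a genotype differed beyond sampling noise (chi-square per degree of freedom 4.89 to 88.5). The labels call the samples biological replicates, and p-values measure the spread between them. The genes and lists were chosen with earlier results of these data known. The rule for other named genes took up to 4 genes of each list with the smallest adjusted p among those called with at least a 2-fold change, the regulators of the PMK-1, ZIP-2 and GATA lists, and the 3 genes most like each of the 10. Sequences and promoter motifs were not analysed here, and 2 of 11 listed PMK-1 effector genes were not used here.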

Additional observations from a re-analysis of the deposited data

Results flagged for a closer look

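In 13 of 90 groups of 5 replicates, 1 library stood apart from the other 4 by Dixon's gap ratio over 0.71. For independent normal values about 1 in 20 groups, or 4.5, would do so. That rate does not apply strictly here, since CPM were used on a linear scale, the groups share libraries and some rest on few counts. The 13 groups therefore give no test against chance. The library apart was C in 6 of the 13 groups, A in 4 and B, D and E in 1 each. For irg-2 these were egl-9 hif-1 replicate C with 5.80 CPM (nearest replicate 2.45 CPM), smg-1 replicate C with 9.26 CPM (nearest replicate 4.58 CPM) and the smg-2 triple mutant replicate A with 3.38 CPM (nearest replicate 2.38 CPM). For dod-22 they were egl-9 hif-1 replicate C with 25.1 CPM (nearest replicate 13.2 CPM) and smg-2 replicate C with 12.2 CPM (nearest replicate 6.26 CPM), and for dod-17 smg-2 replicate C with 49.2 CPM (nearest replicate 32.2 CPM). For irg-5, the smg-2 triple mutant replicate A had 5.94 CPM (nearest replicate 2.58 CPM), for dod-24 the smg-2 triple mutant replicate E had 205 CPM (nearest replicate 163 CPM), and for irg-4 N2 replicate B was low with 14.5 CPM (nearest replicate 18.5 CPM). The groups of irg-6 rest on a few counts: the smg-1 triple mutant replicate C had 0.340 CPM (nearest replicate 0.0934 CPM), the smg-2 triple mutant replicate A had 0.457 CPM (nearest replicate 0.0644 CPM), smg-1 replicate D had 0.0545 CPM (nearest replicate 0 CPM) and smg-2 replicate A had 0.0846 CPM (nearest replicate 0 CPM). In the last 2 groups the other 4 libraries were all at 0, which fixes the ratio at 1.

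The effect of 1 mutation differed between NMD backgrounds in 8 cases, by the interaction term of edgeR's quasi-likelihood test. The effect of egl-9 in the smg-1 background minus that with NMD intact was 1.02 in log2 for dod-17 (adjusted p 0.0256) and 0.72 for dod-24 (adjusted p 0.0188). The effect of hif-1 in the smg-1 background minus that with NMD intact was -2.12 for irg-1 (adjusted p 0.0441), -1.02 for irg-3 (adjusted p 0.0380), -2.24 for dod-17 (adjusted p 9.19e-07) and -1.38 for dod-22 (adjusted p 0.0193). In the smg-2 background it was -2.19 for irg-1 (adjusted p 0.00687) and 1.74 for dod-24 (adjusted p 8.43e-09).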

How the results depend on the processing

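No value changed sign after being called. Of the log2 values of single genes, 89 calls were lost, 56 gained and 2155 kept their side of the threshold when 1 library was left out, and 42 were lost, 49 gained and 1188 kept under the other settings. The calls of irg-1, irg-4, irg-5, dod-17 and dod-24 for the egl-9 mutation and for the hif-1 mutation in egl-9 mutants held under every setting run.

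The number of the 10 genes called moved by over 1.5 times in these cases, and the cause was not tested. With DESeq2 size factors it was 2 against the main 4 in smg-1 egl-9 versus egl-9, 2 against 4 in smg-2 egl-9 versus egl-9, 1 against 0 in the smg-2 interaction with egl-9 and 2 against 4 in the smg-1 interaction with hif-1. Without a filter these were 2, 2, 0 and 1. With a mean of at least 5 CPM, which drops irg-2 and irg-6, it was 2 against 4 in smg-1 versus N2, 2 against 1 in smg-2 versus N2, 1 against 0 in the smg-2 interaction with egl-9 and 2 against 4 in the smg-1 interaction with hif-1. With limma it was 2 against 4 in smg-1 egl-9 versus egl-9, 3 against 5 in the smg-1 triple mutant versus egl-9 hif-1, 6 against 3 in the smg-2 triple mutant versus egl-9 hif-1, 1 against 0 in the smg-2 interaction with egl-9 and 2 against 4 in the smg-1 interaction with hif-1. The DESeq2 Wald test gave 2 against 4 in smg-1 egl-9 versus egl-9 and 1 against 0 in the smg-2 interaction with egl-9, and a fit of the compared genotypes alone gave 2 against 4 in the smg-1 interaction with hif-1.

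The letters were to be taken as pairs where every same-letter correlation of replicate deviations was over 0.1. No comparison met that rule (range -0.339 to 0.459), so the main fit has no pairing. The rule asks this of every letter at once and cannot show the letters to be unrelated. Of 45 libraries, 28 correlated best with their own letter. The replicate block gave 1 against 0 in the smg-1 triple mutant versus smg-1, 2 against 1 in smg-2 versus N2, 7 against 4 in smg-2 egl-9 versus egl-9, 3 against 0 in the smg-2 interaction with egl-9 and 5 against 2 in the smg-2 interaction with hif-1.

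With 1 library left out the counts ranged from 7 to 8 in egl-9 versus N2, 8 to 9 in smg-1 egl-9 versus smg-1, 8 to 10 in smg-2 egl-9 versus smg-2, 7 to 9 in egl-9 hif-1 versus egl-9, 6 to 8 in egl-9 hif-1 versus N2, 1 to 4 in smg-1 versus N2, 1 to 3 in smg-2 versus N2, 2 to 5 in smg-1 egl-9 versus egl-9, likewise 2 to 5 in smg-2 egl-9 versus egl-9, 3 to 6 in the smg-1 triple mutant versus egl-9 hif-1, 1 to 4 in the smg-1 interactions with egl-9 and with hif-1, 0 to 2 in the smg-2 interaction with egl-9 and 2 to 4 in the smg-2 interaction with hif-1. DESeq2 size factors moved the median of all genes by -0.102 in egl-9 hif-1 versus egl-9, -0.108 in smg-2 egl-9 versus egl-9, 0.123 in the smg-1 interaction with hif-1 and 0.12 in the smg-2 interaction with hif-1, on the log2 scale. Depth limits irg-6 most, and the planned search of promoters was not run.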
